A study of Mus musculus with 18 samples.

Results

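The protein-coding genes Cd80, Eda2r, Ano3, Dglucy, Klhdc7a and Wdr72 were followed over Trp53 dosage in primary mouse embryo fibroblasts (MEFs) with and without Pole4. They are 6 of the 51912 genes in the count table. They were chosen by name because their counts fall to almost nothing in the Trp53-/- libraries, so their levels in Trp53-/- cells are given as a description and carry no test. All 6 passed the filter on low counts, but Wdr72 reached the filter level of 0.439 CPM (counts per 1000000 counts of the library, after scaling) in 3 of 3 Pole4-/- Trp53+/+ libraries and in only 1 other library, a Pole4+/+ Trp53+/+ one, and so was tested only because of the genotype in which it is highest.

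TRP53 is a transcription factor that is stabilised by DNA damage and replication stress and switches on genes for cell-cycle arrest, DNA repair and cell death. It binds DNA at response elements, each made of a pair of short half-sites, and Cdkn1a, which encodes the cyclin-dependent kinase inhibitor p21, is its best-known target. POLE4 is an accessory subunit of DNA polymerase epsilon, which synthesises the leading strand at replication forks. The 6 genes described here are far less familiar. CD80 is a costimulatory ligand that antigen-presenting cells show to T cells, EDA2R is a tumour necrosis factor (TNF) family receptor for a splice isoform of ectodysplasin A, ANO3 is a membrane protein of the anoctamin family, DGLUCY is a mitochondrial enzyme that cyclises D-glutamate, WDR72 is a WD-repeat protein needed for the maturation of tooth enamel, and KLHDC7A is a kelch-domain protein of poorly known function.

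The MEFs were at passage 1 and came from C57BL/6 embryos bred from Pole4+/- Trp53+/- parents, with head and internal organs removed. The 3 genotypes at Trp53 (+/+, +/- and -/-, the null allele being Trp53tm1Brd) were combined with 2 at Pole4 (+/+ and -/-, the null allele being Pole4tm1(KOMP)Vlcg), which gives 6 genotypes with 3 libraries each. All cultures were grown at 5% oxygen and no group received a DNA-damaging agent, so the levels are those of untreated primary cells. With Trp53 intact, the paper reports more cells with markers of DNA damage, such as micronuclei, in Pole4-/- MEFs. Untreated therefore does not mean undamaged. The sources used here do not say that the 3 libraries of a genotype came from separate embryos, so p-values measure the spread between these libraries, which may be partly technical.

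Library totals ran from 9535971 to 35319918 expected counts, of which ribosomal RNA genes took 0.968% to 42.5%. Among Pole4+/+ libraries, Trp53 transcripts ran from 86.6 to 96.0 CPM with both copies, from 56.2 to 59.6 CPM with a single copy and from 8.65 to 12 CPM with none. Among Pole4-/- libraries they ran from 64.2 to 72.6, 48.4 to 55.6 and 10.02 to 12.1 CPM in the same order, so all libraries matched their Trp53 labels and a low level of transcript remained in Trp53-/- cells. Pole4 transcripts were at 9.26 to 11.98 CPM in the 9 Pole4-/- libraries and at 14.2 to 26.4 CPM in the 9 Pole4+/+ libraries. All 11 fibroblast markers were present, and their sum moved with genotype in Pole4-/- cells: 25063 to 31070 CPM with Trp53+/+, 20705 to 26230 with Trp53+/- and 13777 to 16669 with Trp53-/-. In Pole4+/+ cells it ran from 16582 to 22128, 20486 to 26089 and 16027 to 21397 CPM in the same order, so that the Pole4-/- Trp53+/+ libraries stood above the Pole4+/+ Trp53+/+ ones. The part of this in the levels of the 6 genes was not tested. All 3 Pole4+/+ Trp53+/+ libraries had the Xist level of female cells and all 3 Pole4+/+ Trp53+/- libraries that of male cells, so sex and Trp53 genotype cannot be told apart within that comparison. The first Pole4+/+ Trp53-/- library held 7.19 CPM of Y-linked transcripts beside 857 CPM of Xist, and the ratios and shares of the 6 genes that rest on it are also given without it.

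The genes lie on different chromosomes. On GRCm38, Cd80 is at chr16:38455561-38496335 on the plus strand, Eda2r at chrX:97333840-97377216 on the minus strand, Ano3 at chr2:110655201-110950923 on the minus strand, Dglucy at chr12:100779057-100896981 on the plus strand, Klhdc7a at chr4:139960220-139968026 on the minus strand and Wdr72 at chr9:74110356-74283308 on the plus strand. RefSeq start sites on GRCm38.p6 were matched for 5 of the 6 genes, all but Wdr72, and the 250 bases before each start were searched for the TRP53 half-site. The search asked for the core C and G at their places and used the rest of the consensus with no mismatch or with at most 1; the half-site reads the same on both strands. Klhdc7a held an exact half-site, which 7.13% of 32851 windows of this length held. Cd80 held 2 half-sites with 1 mismatch each that follow each other with no spacer, an arrangement found in 0.174% of the windows; this arrangement was searched for after the Cd80 window had been read. Eda2r and Dglucy each held a single half-site with 1 mismatch, and neither Ano3 window held a match; 44.7% of windows held at least 1 half-site with at most 1 mismatch, exact ones included. A match of letters is a description and not evidence of binding. The windows of Cd80 (chr16:38458683-38458932, plus strand, inside the gene's annotated span but in none of its exons) and Klhdc7a (chr4:139968027-139968276, minus strand, upstream of the gene) are printed because they carry these arrangements, 5′ to 3′ on the strand of the gene, with the half-sites in capitals.
Cd80: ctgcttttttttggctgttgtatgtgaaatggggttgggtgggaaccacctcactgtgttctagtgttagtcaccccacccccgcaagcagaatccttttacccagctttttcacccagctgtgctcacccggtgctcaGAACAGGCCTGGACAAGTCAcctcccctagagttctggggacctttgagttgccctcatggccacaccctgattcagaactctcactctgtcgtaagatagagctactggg
Klhdc7a: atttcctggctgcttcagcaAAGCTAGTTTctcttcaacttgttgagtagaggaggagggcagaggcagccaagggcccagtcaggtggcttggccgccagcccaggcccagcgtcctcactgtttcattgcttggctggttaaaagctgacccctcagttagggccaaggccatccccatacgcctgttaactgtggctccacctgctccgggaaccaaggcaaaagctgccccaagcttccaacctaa
The capitals in Cd80 end 92 bases before the start site, and those in Klhdc7a end 221 bases before it. G and C made up 52.8% of the Cd80 window and 56.8% of the Klhdc7a window, against a median of 52.4% over all windows.

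Cd80, the costimulatory ligand, was at 10.4, 7.03 and 9.37 CPM in the 3 Pole4+/+ Trp53+/+ libraries, at 2.97, 3.92 and 4.08 CPM in Pole4+/+ Trp53+/- and at 0.223, 0.0775 and 0 CPM in Pole4+/+ Trp53-/-. In Pole4-/- cells it was at 21.1, 18.4 and 19.0 CPM with Trp53+/+, at 10.6, 5.33 and 7.26 CPM with Trp53+/- and at 0.181, 0.209 and 0.265 CPM with Trp53-/-. The 3 Trp53 genotypes did not overlap in either Pole4 background, and the Pole4-/- libraries stood above the Pole4+/+ ones in Trp53+/+ and in Trp53+/- cells. Summed over the libraries, the Trp53-/- cells held 10 Cd80 counts in Pole4+/+ and 12 in Pole4-/-, which places the level 68.0-fold (95% counting interval 36.8 to 143) and 94.0-fold (53.6 to 183) below that of Trp53+/+ cells. Of the 10 counts, 8 lay in the Pole4+/+ Trp53-/- library that held Y-linked transcripts, and without it the ratio in Pole4+/+ was 175 (48.4 to 1451). These intervals and those for the other genes are exact, cover counting error only and leave the spread between libraries out.

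Eda2r, the ectodysplasin receptor, was the most abundant of the 6 genes per kilobase of exon in Trp53+/+ cells of either Pole4 genotype. It was at 45.9, 42.2 and 61.1 CPM in Pole4+/+ Trp53+/+ libraries, at 38.3, 33.1 and 29.7 CPM in Pole4+/+ Trp53+/- and at 1.12, 0.271 and 0.646 CPM in Pole4+/+ Trp53-/-. With Pole4-/- the values were 58.9, 65.2 and 68.4 CPM in Trp53+/+, 52.0, 41.6 and 46.9 CPM in Trp53+/- and 0.589, 0.471 and 0.530 CPM in Trp53-/-. The Trp53+/- libraries sat below every Trp53+/+ library of the same Pole4 genotype but much closer to them than to the Trp53-/- libraries. With 55 and 30 counts left in the Trp53-/- cells, the level was lower by 65.4-fold (50.1 to 87.0) in Pole4+/+ and 116-fold (81.3 to 173) in Pole4-/-. The library with Y-linked transcripts held 40 of the 55 counts, and the ratio without it was 124 (74.8 to 221). Eda2r is X-linked, and the Pole4+/+ Trp53+/- libraries were male where the Pole4+/+ Trp53+/+ ones were female. Sex and Trp53 genotype therefore cannot be told apart in this difference.

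Ano3, the anoctamin, was among the most completely silenced. It was at 15.0, 13.8 and 25.4 CPM in Pole4+/+ Trp53+/+ libraries, the third library standing above the others, and at 9.90, 6.25 and 8.86 CPM in Pole4+/+ Trp53+/-. In Pole4-/- cells it was at 35.7, 40.5 and 42.5 CPM with Trp53+/+ and at 18, 9.11 and 18.1 CPM with Trp53+/-. The Trp53-/- cells held a single Ano3 count in 3 Pole4+/+ libraries and 4 counts in 3 Pole4-/- libraries, 3 of these 4 in the third library. The ratio of Trp53+/+ to Trp53-/- was therefore 1275 with an interval of 228 to 50414 in Pole4+/+, and 535 with an interval of 209 to 1966 in Pole4-/-. The single Pole4+/+ count lay in the library with Y-linked transcripts; the other Pole4+/+ Trp53-/- libraries were at 0, which with 3 counts per library as the floor places Ano3 at least 101-fold lower. The width of these intervals comes from the few counts left in Trp53-/- cells.

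Dglucy, the D-glutamate cyclase, kept the most. It was at 19.6, 22.8 and 25.5 CPM in Pole4+/+ Trp53+/+ libraries, at 17.2, 17.3 and 16.6 CPM in Trp53+/- and at 1.62, 0.775 and 0.566 CPM in Trp53-/-. In Pole4-/- cells it was at 27.2, 26.9 and 28.9 CPM, then 23.5, 18.5 and 19.4 CPM, then 0.771, 0.732 and 0.596 CPM. No library of a Trp53 genotype overlapped the next genotype in either background, and the Trp53+/+ to Trp53-/- ratio was 19.1 (15.3 to 24.1) in Pole4+/+ and 38.5 (28.1 to 54.2) in Pole4-/-. Without the library that held Y-linked transcripts and 58 of the 85 counts, the Pole4+/+ ratio was 31.0 (21.2 to 47.2).

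Klhdc7a, the kelch-domain gene, was low in Pole4+/+ cells, at 1.09, 0.723 and 2.02 CPM with Trp53+/+ and 0.450, 0.333 and 1.15 CPM with Trp53+/-. These groups overlapped. In Pole4-/- cells it was at 5.13, 6.67 and 8.56 CPM with Trp53+/+ and at 1.38, 0.280 and 1.27 CPM with Trp53+/-, with a wide gap between the groups. In Trp53-/- cells a single count was left in each Pole4 background, giving ratios of 89.7 (15.7 to 3585) and 342 (60.9 to 13568). The library with Y-linked transcripts held none of them, and the Pole4+/+ ratio without it was 46.3 (8.08 to 1848).

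Wdr72, the enamel gene, was close to the detection limit outside a single genotype. It had 27, 15 and 16 counts (1.01, 1.25 and 2.14 CPM) in the Pole4-/- Trp53+/+ libraries, but 3, 0 and 8 counts in Pole4+/+ Trp53+/+, 1, 1 and 0 in Pole4+/+ Trp53+/- and 2, 3 and 6 in Pole4-/- Trp53+/-. All 6 Trp53-/- libraries were at 0. Taking 3 counts per library as the floor, Wdr72 was at least 8.95-fold lower in Pole4-/- Trp53-/- than in Pole4-/- Trp53+/+ cells; in Pole4+/+ cells the counts were too few for a fold. In whole cultures, fewer cells that express a gene and less of its RNA per cell cannot be told apart, for this or any other of the 6 genes.

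**Figure D1:**
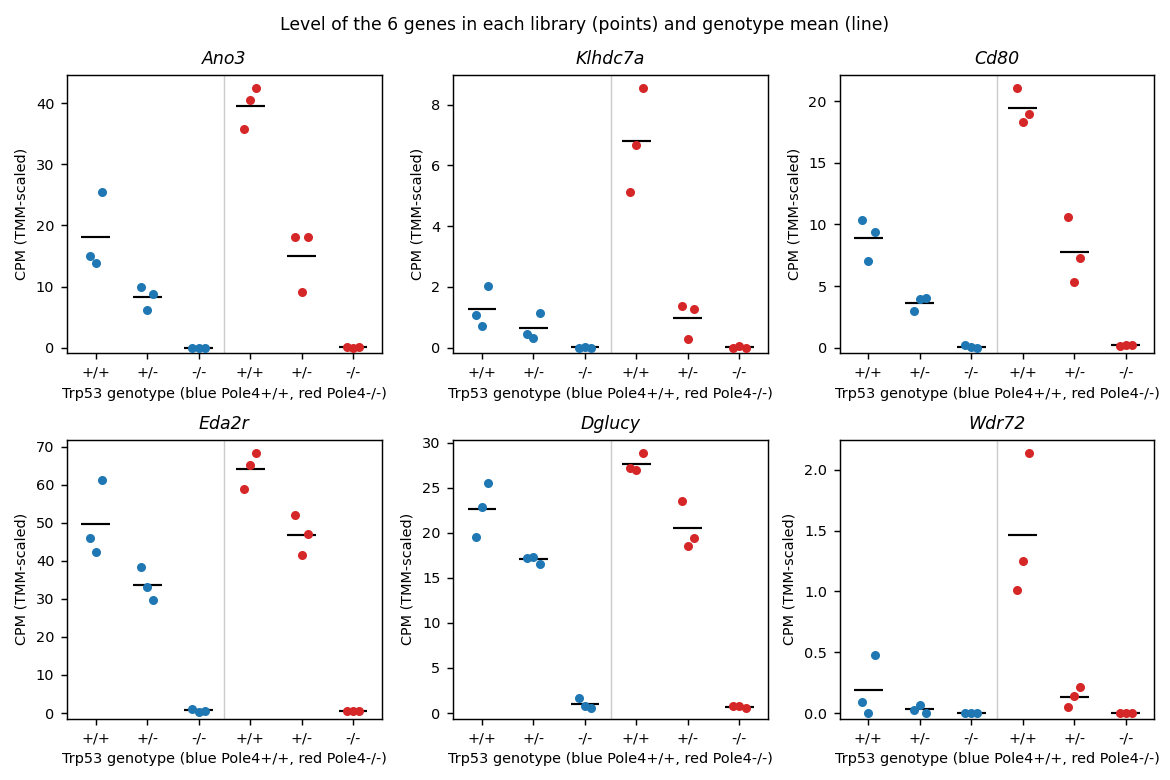
Level of each of the 6 genes in every library, in TMM-scaled CPM on a linear axis that starts at 0. Points are the 3 libraries of a genotype (blue Pole4+/+, red Pole4-/-) and lines their mean; in each panel the Trp53-/- libraries lie on or near 0, from 0 to 1.62 CPM over all 6 genes.

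As a share of the Trp53+/+ mean of the same Pole4 genotype, the Trp53-/- cells kept 0 to 4.36% of the 6 genes in Pole4+/+ (median 1.07%) and 0 to 2.53% in Pole4-/- (median 0.542%). These shares, and the lack of overlap with Trp53+/+ libraries, which 8.31% of all genes showed in this direction in Pole4+/+ and 28.5% in Pole4-/-, describe how the genes were chosen. Wdr72 did overlap in Pole4+/+, where the second Trp53+/+ library was also at 0. The highest shares were those of Dglucy, at 4.36% and 2.53%, and just outside lay Gm13067 at 0% and 2.83%, Gm47761 at 2.77% and 3.41%, Gm42047 at 3.59% and 3.20%, Gm37795 at 6.29% and 3.01%, and Trp53inp1, a TRP53 target, at 8.19% and 2.43%. Without the library that held Y-linked transcripts, the Pole4+/+ shares were 0.435% in place of 1.12% for Cd80, 0.922% in place of 1.36% for Eda2r, 2.96% in place of 4.36% for Dglucy, 0% in place of 0.0514% for Ano3 and 1.52% in place of 1.01% for Klhdc7a. The Pole4+/+ median was 0.679% without that library, 0.664% without the second Pole4+/+ Trp53-/- library and at most 1.46% on leaving out any 1 of the 6 libraries. Per kilobase of exon, the order in Pole4+/+ Trp53+/+ cells was Eda2r (8.44 ± 1.70 CPM per kb, SD, n = 3), Dglucy (4.92 ± 0.645), Ano3 (2.51 ± 0.885), Cd80 (2.41 ± 0.463), Klhdc7a (0.163 ± 0.0854) and Wdr72 (0.0252 ± 0.0336), and only Ano3 and Cd80 were neighbours whose libraries overlapped. In Pole4-/- Trp53+/+ cells the order was the same, with Eda2r at 10.9 ± 0.821 CPM per kb, and Dglucy (6.02 ± 0.232), Ano3 (5.48 ± 0.485) and Cd80 (5.26 ± 0.389) overlapped with their neighbours among these 3.

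The Trp53+/- libraries had no part in choosing the genes and ask whether a single lost copy already lowers them. The Trp53+/+ libraries they are compared with belonged to the contrast that chose the genes. In Pole4+/+ cells, Cd80 fell (log2 fold change -1.31 ± 0.28 SE, adjusted p = 0.0390) and was the only one of the 6 genes to pass the test, against 0.904% of all 15710 genes tested, 0.407% of all genes being lower. Ano3 was at -1.10 ± 0.30 (adjusted p = 0.105), Eda2r at -0.56 ± 0.21 (adjusted p = 0.312), Dglucy at -0.41 ± 0.19 (adjusted p = 0.476) and Klhdc7a at -1.05 ± 0.61 (adjusted p = 0.630). Wdr72 was at -2.26 ± 1.27 (adjusted p = 0.625) on 11 counts against 2. The libraries of Cd80, Ano3, Eda2r and Dglucy did not overlap between the genotypes, a separation in this direction that 10.1% of all genes showed, and an exact two-sided permutation test gave p = 0.1 for each, the smallest that 3 libraries against 3 allow. The median over the genes other than Wdr72 was -1.05 on the log2 scale, the Klhdc7a value, against 0.00 over all genes. The Cd80 call was lost on omitting any 1 of the 6 libraries (adjusted p from 0.0680 to 0.245), with library totals as the scaling (0.157) and with sex read from Xist as a covariate (0.0802), while its log2 fold change stayed between -1.68 and -1.15 over 13 alternatives.

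In Pole4-/- cells, Cd80, Ano3 and Klhdc7a passed the same test, all lower. Cd80 fell by 1.33 on the log2 scale (SE 0.27, adjusted p = 0.0202), Ano3 fell by 1.38 (SE 0.29, adjusted p = 0.0234) and Klhdc7a fell by 2.75 (SE 0.57, adjusted p = 0.0209). Wdr72 was at -3.39 ± 0.87 (adjusted p = 0.0475), on 11 counts against 58; it entered the test only through the Pole4-/- Trp53+/+ libraries of this comparison, so its value is a description and is not counted with the others. Eda2r was at -0.45 ± 0.21 (adjusted p = 0.190) and Dglucy at -0.43 ± 0.19 (adjusted p = 0.165). In this comparison 5.12% of all genes passed, 2.16% of all genes lower, and the libraries did not overlap for any of the 5 genes other than Wdr72, where 18.9% of all genes separated in this direction. Exact permutation p was 0.1 for each of the 5. Ribosomal RNA took 7.11%, 24.1% and 42.5% of the counts in the Pole4-/- Trp53+/+ libraries and 4.12%, 15.5% and 3.75% in the Pole4-/- Trp53+/- ones, and its part in these differences was not tested. The calls of Ano3 and Klhdc7a were lost without the second Pole4-/- Trp53+/- library (adjusted p = 0.127 and 0.107), which was the lowest of its group for both genes, and without the second (0.0912 and 0.0832) or the third (0.0841 and 0.0807) Pole4-/- Trp53+/+ library; that of Cd80 was lost without the same Trp53+/- library (0.127) or any 1 of the Trp53+/+ libraries (0.0572 to 0.0793), and that of Wdr72 without any 1 of the 6 libraries (0.0655 to 0.197). With library totals as the scaling, which moved the median of all genes to 0.29, Ano3 was at -1.04 (adjusted p = 0.0689), while Cd80 and Klhdc7a were still called. With sex read from Xist as a covariate Ano3 (adjusted p = 0.0523) and Wdr72 (0.103) were no longer called, and with sex read from Y-linked genes Wdr72 (0.0819).

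The shares of the wild-type level that were kept with a single Trp53 copy lay in different ranges. The Trp53 transcript itself was kept at 63.9% ± 1.87 (SD over 3 libraries) in Pole4+/+ and 75.8% ± 5.30 in Pole4-/-. Dglucy was kept at 75.3% ± 1.77 and 74.0% ± 9.56, and Eda2r at 67.7% ± 8.71 and 73.0% ± 8.12. Cd80 was kept at 41.0% ± 6.75 and 39.7% ± 13.8, and Ano3 at 46.1% ± 10.4 and 38.1% ± 13.1. The libraries of Cd80 and Ano3 lay below all Trp53+/- shares of the Trp53 transcript, of Eda2r and of Dglucy in each Pole4 background; these differences between genes were not tested. Klhdc7a was kept at 50.6% ± 34.7 in Pole4+/+ and 14.4% ± 8.93 in Pole4-/-. Scaled by library totals, the Pole4-/- shares of Eda2r and Dglucy were 91.6% and 92.2%. The third Pole4+/+ Trp53+/+ library was the highest of its group for 5 of the 6 genes, and without it the shares in Pole4+/+ were 57.8% for Ano3, 76.5% for Eda2r, 80.3% for Dglucy and 71.2% for Klhdc7a. Without the third Pole4+/+ Trp53+/- library the Klhdc7a share was 30.7%.

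**Figure D2:**
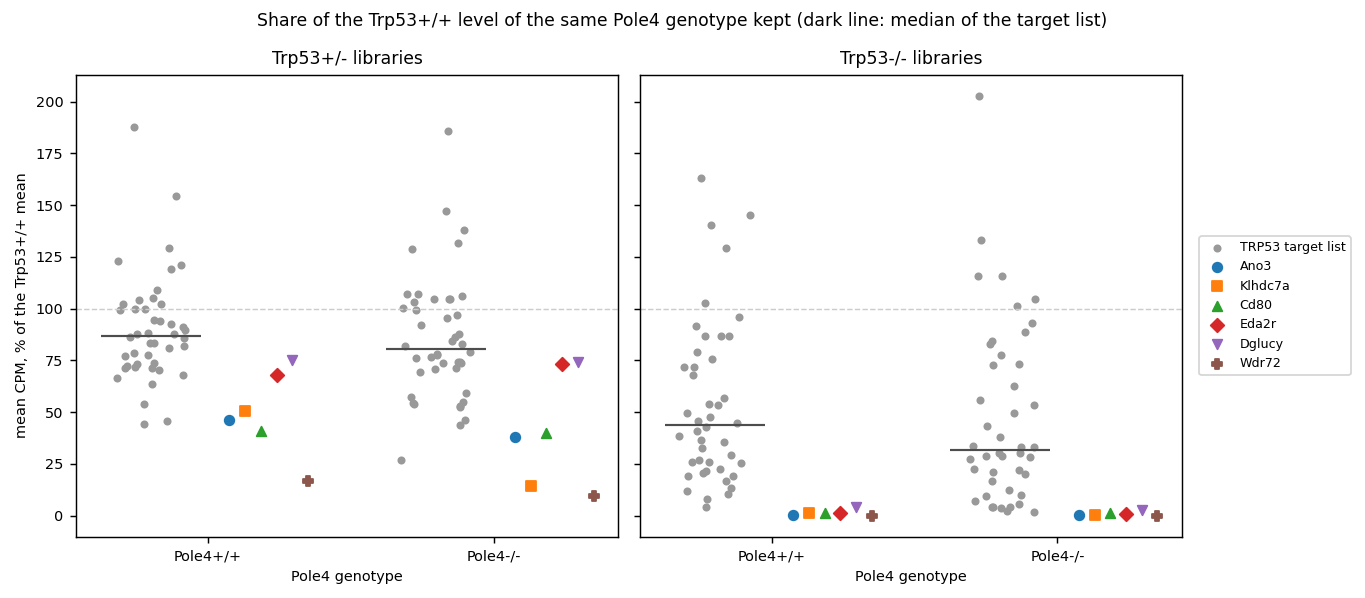
Mean level in Trp53+/- (left) and Trp53-/- (right) cells as a percentage of the Trp53+/+ mean of the same Pole4 genotype, for the 6 genes (coloured symbols) and the 44 genes of a TRP53 target list (grey points, with their median as a line). In Trp53+/- cells Eda2r and Dglucy lie between 67.7% and 75.3% and Ano3 and Cd80 between 38.1% and 46.1%, while in Trp53-/- cells, the genotype used to choose them, all 6 lie between 0 and 4.36%.

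Pole4 loss was compared at each Trp53 dose that leaves the genes measurable. In Trp53+/+ cells, Klhdc7a was higher in Pole4-/- by 2.41 ± 0.56 on the log2 scale (adjusted p = 0.0315), Ano3 by 1.13 ± 0.29 (adjusted p = 0.0440) and Cd80 by 1.13 ± 0.27 (adjusted p = 0.0341). These 3 of the 6 genes passed, against 3.98% of all genes, with 1.29% of all genes higher. Wdr72 was at 3.01 ± 0.87 (adjusted p = 0.0716), the genotype that let it through the filter being that of the higher level. Eda2r was at 0.37 ± 0.21 (adjusted p = 0.279) and Dglucy at 0.29 ± 0.19 (adjusted p = 0.338), the latter turning to -0.020 with library totals as the scaling. The Pole4-/- libraries stood above all Pole4+/+ libraries for Cd80, Ano3, Dglucy and Klhdc7a, as for 19.4% of all genes, with an exact permutation p of 0.1 for each. Ribosomal RNA took 5.81% to 11.2% of the counts in the Pole4+/+ Trp53+/+ libraries against 7.11% to 42.5% in the Pole4-/- Trp53+/+ ones, and within the latter Ano3, Eda2r, Klhdc7a and Wdr72 were lowest in the library with the smallest share and highest in that with the largest. Its part in the difference was not tested. This comparison shares its Pole4-/- Trp53+/+ libraries with the Trp53+/- comparison above, and the values of both rest on them.

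None of these 3 calls held in every alternative. With sex read from Y-linked genes as a covariate, the log2 differences were 1.96 for Klhdc7a, 0.95 for Ano3 and 0.91 for Cd80 (adjusted p = 0.198, 0.256 and 0.191), and with sex read from Xist the adjusted p was 0.192, 0.219 and 0.180. The Pole4+/+ Trp53+/+ libraries were all female and the Pole4-/- Trp53+/+ libraries were 1 female and 2 male. Library totals as the scaling put the median of all genes at -0.28, Ano3 at 0.80 (adjusted p = 0.155) and Cd80 at 0.84 (adjusted p = 0.0891), with Klhdc7a still called, and with no filter on low counts Ano3 was at 1.06 (adjusted p = 0.0726). The calls of Ano3 (adjusted p 0.0859 to 0.208) and Klhdc7a (0.0628 to 0.166) were lost without any 1 of the 6 libraries other than the third Pole4+/+ Trp53+/+ one, and that of Cd80 without any 1 of the 6 (0.0533 to 0.180). The sign of all 3 was kept in each of 13 alternatives.

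In Trp53+/- cells the difference between the Pole4 genotypes passed the test for none of the 6 genes with edgeR, and for 0.00637% of all genes, a single gene that was lower (0.0% were higher). At an unadjusted p under 0.05 it was passed by 3 of the 6 and by 866 of all genes, and DESeq2 called Cd80 (adjusted p = 0.0265). Cd80 was at 1.11 ± 0.28 on the log2 scale (adjusted p = 0.398), Ano3 at 0.85 ± 0.30 (adjusted p = 0.693), Klhdc7a at 0.71 ± 0.60, Eda2r at 0.47 ± 0.21 (adjusted p = 0.876) and Dglucy at 0.27 ± 0.19. The values of these genes were above 0, and the libraries of Cd80, Eda2r and Dglucy did not overlap, as for 6.26% of all genes. The Pole4+/+ Trp53+/- libraries were all male, while of the Pole4-/- Trp53+/- ones the first was male and the others female. Sex and Pole4 genotype are therefore partly mixed here, also for the X-linked Eda2r, and with either sex covariate 0 genes were called. In this comparison same-numbered libraries deviated together, and with the replicate number as a block Cd80 was at an adjusted p of 0.285 and still not called. In Trp53-/- cells too few counts were left for the Pole4 genotypes to be compared for Ano3, Klhdc7a and Wdr72.

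**Figure D3:**
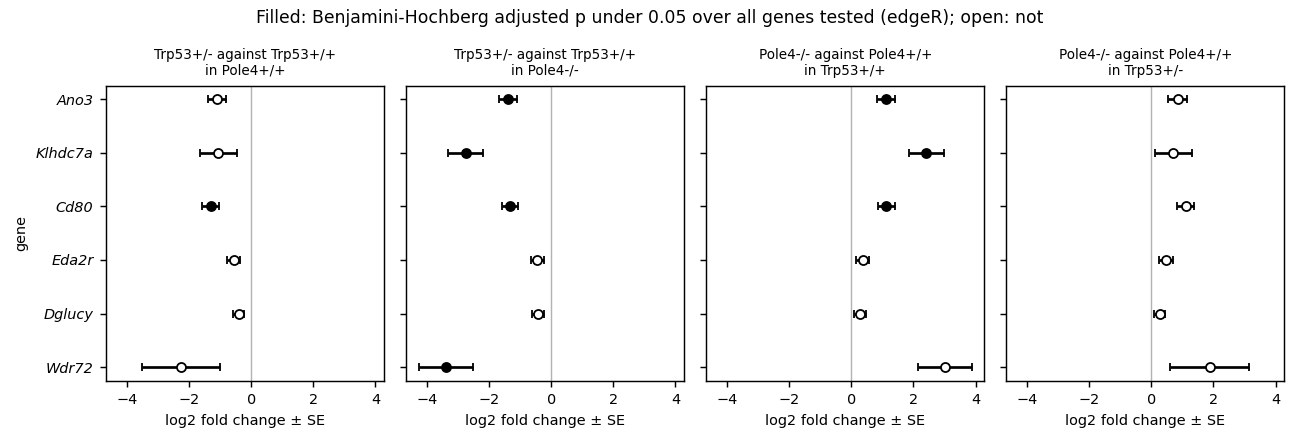
Log2 fold change (points) and its standard error (bars) of the 6 genes in the 4 comparisons that did not use the Trp53-/- libraries, from the edgeR fit over all 18 libraries; filled points have an adjusted p under 0.05. The values of the 5 genes other than Wdr72 lie below 0 for Trp53+/- against Trp53+/+ and above 0 for Pole4-/- against Pole4+/+, with that of Dglucy in Trp53+/+ cells turning to -0.020 when library totals are used as the scaling.

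Whether a single Trp53 copy mattered more without Pole4 was tested directly, as the difference of the Trp53+/- effects. None of the 6 genes passed with edgeR, none did at an unadjusted p under 0.05 and none did with DESeq2; over all genes edgeR called 0%, with 1591 genes at an unadjusted p under 0.05, and DESeq2 called 27 genes. Klhdc7a had the lowest p, at -1.70 ± 0.82 on the log2 scale (unadjusted p = 0.0557, adjusted p = 0.492). Cd80 was at -0.019 ± 0.40 and Dglucy at -0.024 ± 0.27, and the sign of each changed under several alternatives. That more of the genes were called in Pole4-/- than in Pole4+/+ cells is therefore not shown to be a difference between the backgrounds.

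Over the 18 libraries, the tested genes most like Ano3 by Pearson correlation of log2 CPM were Gm47761 (r = 0.989), Zmat3 (0.988), a zinc-finger gene and TRP53 target, and Polk (0.986), a translesion DNA polymerase and TRP53 target. For Cd80 they were Exoc4 (0.986), an exocyst subunit, Ano3 (0.985) and Polk (0.983). For Eda2r they were Dglucy (0.994), Inka2 (0.993) and Zmat3 (0.992), and for Dglucy Cdkn1a (0.995), Eda2r (0.994) and Inka2 (0.991). For Klhdc7a they were P2ry14 (0.966), Trim11 (0.964) and Gria3 (0.963), and for Wdr72 Serpinb6b (0.935), Npr3 (0.930) and Pfkfb2 (0.917). All of these correlations contain the drop to Trp53-/- that chose the genes and the libraries' shared depth, and are given with no p. Over the 12 libraries that carry at least a single Trp53 copy, the pairs among the 6 genes ran from 0.803 (Dglucy and Wdr72) to 0.946 (Ano3 and Eda2r). Genes outside the 6 reached values above this range, such as Polk with Ano3 (0.978), Npr3 with Wdr72 (0.958) and P2ry14 with Klhdc7a (0.957). Gm47761 with Ano3 lay below it (0.790). All of these values share the Pole4-/- Trp53+/+ libraries in which all 6 genes have their highest mean.

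A list of 44 tested TRP53 targets, chosen from general knowledge, with earlier results of these data known, gives a scale for these values. In Trp53-/- cells 30 of them passed the test lower and none higher in Pole4+/+, where 2.37% of all genes passed lower and 2.23% higher, and 32 lower and 2 higher in Pole4-/-, where 20.8% of all genes passed lower and 21.8% higher. The Pole4+/+ count was 12 when only the libraries compared were fitted, where 70 of all genes were lower in place of 372, and 32 without the library with Y-linked transcripts, where 1340 were. Their median share kept was 43.9% in Pole4+/+ and 31.6% in Pole4-/- cells. By the mean share over both Pole4 backgrounds the lowest was Cdkn1a, at 4.06% and 1.88%, followed by Trp53inp1 and by Ephx1, an epoxide hydrolase, at 13.2% and 4.09%. In Trp53+/- cells 2 of the 44 fell in each background, Mdm2, the ubiquitin ligase that degrades TRP53, and Tnfrsf10b, a death receptor, in Pole4+/+, and Perp, a membrane protein linked to cell death, and Polk in Pole4-/-, where 0.407% and 2.16% of all genes passed lower. Their median share kept with a single copy was 86.8% and 80.5%. Over the genes of the report other than Wdr72 the median was 50.6% (the Klhdc7a share) and 39.7% (the Cd80 share). The 6 genes were chosen for their loss in Trp53-/- cells, and the difference was not tested.

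Genes related to the 6 by family or by function, called relatives here, were read in the same libraries. Their counts in Pole4-/- Trp53-/- cells stand against the 20.8% of all genes that passed lower and the 21.8% that passed higher there, and those in Pole4+/+ against 2.37% and 2.23%. The Pole4+/+ calls turned on the libraries used: 372 of all genes were called lower and 351 higher, 1340 and 1378 without the library with Y-linked transcripts, and 70 and 24 when only the libraries compared were fitted. The relatives were not tested again under these alternatives. Of 9 other anoctamins, 5 were tested, and in Trp53-/- cells Ano1, a chloride channel, was lower by -1.32 ± 0.22 on the log2 scale in Pole4+/+ (adjusted p = 0.00235) and by -1.40 ± 0.22 in Pole4-/- (adjusted p = 0.000163), going from 13 to 5.21 CPM and from 16.8 to 6.33 CPM. Ano5, Ano8 and Ano10 passed lower in Pole4-/- and did not pass in Pole4+/+, where far fewer of all genes passed. A difference between the Pole4 genotypes was not tested. With a single Trp53 copy, 1 of the 5 passed lower in Pole4+/+ and 0 in Pole4-/-, where 0.407% and 2.16% of all genes did. Of the other B7 ligands and their receptors, Cd274 and Cd276 were tested and neither passed, with Cd276 in Pole4+/+ cells at 52.6 CPM when Trp53 was intact and 55.3 CPM when it was absent. Cd86, the other ligand of CD28, had at most 9 counts in a library, and Cd28 and Ctla4, the receptors, at most 6 and 0.

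Eda2r signals through ectodysplasin and TRAF proteins. Its ligand gene Eda in Pole4+/+ cells was at 5.08 CPM with intact Trp53 and 4.44 CPM without it and did not pass (adjusted p = 0.759), and Edar, the receptor for the other isoform, had at most 3 counts. None of the 5 tested genes of that pathway passed in Pole4+/+ cells, and Traf3, Traf6 and Tab2 passed higher in Pole4-/- cells. Of 12 other TNF receptors tested, Tnfrsf10b (-1.49 ± 0.13) and Tnfrsf11b, the decoy receptor osteoprotegerin (-1.001 ± 0.13), fell in Pole4+/+ Trp53-/- cells and 6 fell and 1 rose in Pole4-/- cells. Of 5 tested glutamate and D-amino-acid enzymes, none passed in Pole4+/+, while Srr, serine racemase, fell by 1.64 (SE 0.36) and Gls2 and Glul rose in Pole4-/-. Of 7 tested kelch-domain genes, Klhdc10 alone passed in Pole4+/+, higher by 0.28 ± 0.07, and 2 passed lower and 4 higher in Pole4-/-. The list for Wdr72 mixes WD-repeat, enamel and other genes and is not a gene family. Among its 7 tested genes, Dmxl2, a rabconnectin, and Fam20a, an enamel gene, fell in Pole4+/+ by 0.71 and 0.97, and 3 passed lower and 1 higher in Pole4-/-.

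The nearest tested genes on either side were examined for each of the 6. Cd80 lies 2.9 kb from Adprh and 2.0 kb from Timmdc1, which were at 0.05 ± 0.08 and -0.10 ± 0.12 on the log2 scale in Pole4+/+ Trp53-/- cells. The neighbours of Dglucy, Gm2614 at 34.1 kb and Ccdc88c at 14.5 kb, were at -0.21 ± 1.08 and 0.49 ± 0.31. None of the 12 neighbours of the 6 genes passed in Pole4+/+ Trp53-/- cells. In Pole4-/- Trp53-/- cells 6 of the 12 passed, 5 lower and 1 higher, where 20.8% of all genes passed lower and 21.8% higher, and among the 5 was Olfr1316, the neighbour of Ano3 at 1176.1 kb, which had no count in Trp53-/- cells. Muc15, which overlaps Ano3 on the opposite strand, had at most 2 counts in any library, and a miRNA gene inside Klhdc7a had 0.

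Cd80 is a gene of antigen-presenting cells, and markers of such cells were present at a low level. Of 13 macrophage and dendritic-cell markers 12 exceeded 3 counts in some library, with Lyz2 as high as 28.2 CPM, Cd74 at 0.530 CPM or less and H2-Aa, which such cells use to present antigen, at 3 counts or fewer. Their sum ran from 5.44 to 59.0 CPM in Pole4+/+ Trp53+/+, 7.44 to 31.9 in Pole4+/+ Trp53+/-, 7.42 to 29.7 in Pole4+/+ Trp53-/-, 9.77 to 25.4 in Pole4-/- Trp53+/+, 10.4 to 30.2 in Pole4-/- Trp53+/- and 6.91 to 36.1 CPM in Pole4-/- Trp53-/- cells. These ranges overlapped between all genotypes. The part of these cells in the Cd80 level was not tested. Skeletal muscle markers moved with Trp53, and 6 of 7 exceeded 3 counts. Their sum ran from 115 to 152 CPM in Pole4+/+ Trp53+/+, 60.1 to 81.0 in Trp53+/- and 45.8 to 51.2 in Trp53-/-, and from 141 to 152, 125 to 203 and 55.6 to 70.9 CPM in Pole4-/- cells, most of it Acta1 and Des, with Ckm at 1 count or fewer. The part of this in the levels of the 6 genes was not tested. The neuronal markers summed to 67.8 to 147 CPM, mostly Tubb3, Stmn2 and Map2, and Snap25 and Rbfox3 had at most 3 and 2 counts; the sum was higher in Trp53-/- cells (102 to 139 CPM in Pole4+/+, 125 to 147 in Pole4-/-) than in Trp53+/+ cells (67.8 to 87.5 and 77.2 to 97.4), and in Trp53+/- cells it ran from 97.1 to 126 CPM in Pole4+/+, above the Trp53+/+ libraries, and from 85.8 to 126 in Pole4-/-, overlapping them. Epithelial markers summed to 21.6 to 34.7 CPM in Pole4+/+ Trp53+/+, 12 to 17.7 in Trp53+/- and 7.33 to 32.8 in Trp53-/- cells, and with Pole4-/- to 10.6 to 17, 23.4 to 31.8 and 22.3 to 42.6 CPM, the Trp53+/+ libraries standing below the others there. Endothelial markers summed to 1.64 to 6.16 CPM with overlap between all Trp53 genotypes. Their part was likewise not tested.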

How the data were processed

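RNA-seq was done on passage 1 MEFs of 6 genotypes, 3 libraries each. The labels name TRIzol and the methods a column kit for the RNA; paired-end libraries of an Ovation kit, not stated to keep strand, were sequenced on an Illumina HiSeq. The authors trimmed reads, aligned them to GRCm38 with STAR 2.5.2 and counted them with RSEM 1.3.0, per the submitters' processing notes. The deposited table holds RSEM's expected counts, unnormalised, for 51912 genes; RSEM divides reads between similar genes, and 6.14% of values are not whole.

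Here counts were rounded and filtered with filterByExpr (15710 genes kept) and tested with edgeR 4.0.16 in R 4.3.3: TMM factors, a design with 1 coefficient for each genotype fitted to the 18 libraries, robust quasi-likelihood F-tests, Benjamini-Hochberg adjustment over all genes tested, threshold 0.05. SE is the log2 fold change divided by the square root of F. Levels are TMM-scaled CPM, and per length divided by exon kilobases of GENCODE M21, in which 51719 identifiers were found. For correlations a prior count of 2 was added before log2 CPM. The smallest exact two-sided permutation p is 0.1. Folds to Trp53-/- use summed counts with 95% Clopper-Pearson intervals, or a floor of 3 counts per library.

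The 6 genes and all lists were chosen with earlier results of these data known. Genes named are the 6, Trp53 and Pole4, the 3 genes most like each of the 6, their nearest tested neighbours, the family lists, and the 3 targets with the lowest share in Trp53-/-, averaged over both Pole4 backgrounds. Gm13067, Gm47761, Gm42047, Gm37795 and Trp53inp1 at the edge of the choice, the other genes with such low shares (Inka2, 1700007K13Rik, Gm24924 and Olfr1316), and the Mdm2, Tnfrsf10b, Perp and Polk calls, were named after their values were seen. Alternatives were DESeq2 1.42.0, library totals, no filter, only the libraries compared, a replicate block, sex as a covariate (from Y-linked genes above 1 CPM or, added after seeing the data, Xist under 50 CPM), and leaving out each library. The Y-linked rule counted the first Pole4+/+ Trp53-/- library (7.19 CPM) as male, and the Xist rule (857 CPM) counted it as female. The fit was tested on simulated counts. Same-numbered libraries were checked in the comparisons without Trp53-/- libraries. Their deviations correlated at over 0.1 for every number only in Pole4-/- against Pole4+/+ in Trp53+/- (0.261, 0.497 and 0.292). The labels do not say what a number marks. The authors' tests were not used.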

Additional observations from a re-analysis of the deposited data

Results flagged for a closer look

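The summed level of the Y-linked genes Ddx3y, Eif2s3y, Kdm5d and Uty was 7.19 CPM in the first Pole4+/+ Trp53-/- library, which also held 857 CPM of Xist. The 10 other libraries with Xist had 0 to 0.302 CPM of Y-linked transcripts and the 7 male libraries 166 to 202 CPM. The genes lie outside the comparisons of the report and are listed because they stood above the level of the other libraries with Xist. The same library had the highest Eda2r (1.12 CPM), Dglucy (1.62 CPM), Cd80 (0.223 CPM) and Ano3 (0.0279 CPM) of its group, and the report gives their shares and ratios without it. The source of the Y-linked transcripts was not tested.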

How the results depend on the processing

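The directions were steadier than the calls. Wdr72, which passed the filter through a single genotype, is left out of these counts. Of the 5 other genes, the number called in Trp53+/- against Trp53+/+ cells was 1 in Pole4+/+; it was 2 with DESeq2 (Ano3 and Cd80; 402 genes in all, against 142), 0 with library totals as the scaling, 0 with Xist as the sex covariate, and 0 without any 1 library. In Pole4-/- it was 3; it was 2 with the Xist covariate (177 in all) and 0 to 3 when 1 library was left out (17 to 560 in all), while fitting only the libraries compared called all 5 beside 2646 of 15710 genes in all, against 805. In Pole4-/- against Pole4+/+ with Trp53+/+ it was 3; it was 1 with library totals (2256 genes in all, against 626), 0 with the Y-linked or the Xist covariate (11 and 8 in all) and 0 to 2 when 1 library was left out (0 to 3 with Wdr72; 8 to 640 in all). In Trp53+/- it was 0, and 1 with DESeq2 (Cd80; 43 genes in all, against 1). The causes were not tested, except that leaving out a library leaves fewer samples. DESeq2 gave Wdr72 no adjusted p. TRP53 targets lower in Pole4+/+ Trp53-/- cells numbered 30, and 12 when only those libraries were fitted, where 70 of all genes were lower, against 372.

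Replicate numbers are shared by all genotypes. With the replicate number as a block, the number called of these 5 genes in Trp53+/- against Trp53+/+ cells was 2 in Pole4+/+ (Ano3 and Cd80, with 190 of all genes) and 3 in Pole4-/- (983). In Pole4-/- against Pole4+/+ it was 3 in Trp53+/+ (896 of all genes, against 626) and 0 in Trp53+/- (1). In the last the deviations of same-numbered libraries correlated at 0.261, 0.497 and 0.292, and the block changed no call of these genes. In Trp53+/- against Trp53+/+ in Pole4+/+, where the block added the Ano3 call, they correlated at 0.047, 0.393 and 0.276.

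Dglucy in Pole4-/- against Pole4+/+ Trp53+/+ cells turned to -0.020 with library totals. The differences of the Trp53+/- effects, none of them called, turned sign as follows: Ano3 0.066 with library totals, 0.068 with the Y-linked and 0.043 with the Xist covariate; Cd80 0.31, 0.41 and 0.28 with the same, 0.053 with no filter and 0.00096 with only the libraries compared; Dglucy 0.31, 0.41, 0.18 and, with no filter, 0.045. Leaving out 1 library gave -0.32 to 0.19 for Cd80, -0.067 to 0.22 for Eda2r and -0.14 to 0.073 for Dglucy. The median share kept over the 6 genes in Trp53+/- cells was 48.3% in Pole4+/+ (41.4% to 69.8% when 1 library was left out) and 38.9% in Pole4-/- (33.3% to 45.8%). Unlike the counts of calls, these values include Wdr72, at 16.5% and 9.28%. Without it the medians were 50.6% and 39.7%. Depth limits Wdr72 and the Trp53-/- levels of Ano3 and Klhdc7a, which rest on 0 to 4 counts.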

Other observations

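Only 11 of the 15710 genes tested kept as little of their Trp53+/+ level as the 6 genes in both Pole4 backgrounds, at most 4.36% in Pole4+/+ and 2.53% in Pole4-/-. The other 5 were Cdkn1a, Inka2, 1700007K13Rik, Olfr1316 and Gm24924. Inka2, an inhibitor of the kinase PAK4, had, with Trp53 intact, 18.4 CPM in Pole4+/+ and 26.9 CPM in Pole4-/- cells and kept 2.63% and 1.49% of this in Trp53-/- cells. In Trp53+/- cells it was at 12.3 and 15.0 CPM. 1700007K13Rik was at 0.900 and 2.01 CPM in Trp53+/+ cells, 0.413 and 0.715 CPM in Trp53+/- cells, and had 2 counts in all 6 Trp53-/- libraries together.

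Olfr1316, annotated as an olfactory receptor gene and the nearest tested gene on the far side of Ano3 at 1176.1 kb, had 12, 1 and 7 counts in Pole4+/+ Trp53+/+ and 20, 6 and 6 in Pole4-/- Trp53+/+ libraries, and 0 in all 6 Trp53-/- libraries. Gm24924, a small nuclear RNA gene, was also at 0 in all of these, but it was at 0 in 2 of 3 libraries of Pole4+/+ Trp53+/+ and of Pole4-/- Trp53+/+ cells too. These genes were picked out after their values were seen, and the Trp53-/- level that picked them is no test.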
